A study of Mus musculus with 6 samples.

Results

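Injury-induced fibrogenic cells are stromal cells of the fractured periosteum that produce fibrous extracellular matrix. The periosteum is the connective tissue sheath on the outer face of bone, and it holds skeletal stem/progenitor cells and fibroblasts. After a fracture its stromal cells divide and lay down a fibrous tissue that cartilage and bone later replace. Tenascin C (Tnc), tenascin N (Tnn) and periostin (Postn) are secreted proteins that bind matrix and cell-surface receptors and are made where connective tissue is repaired.

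Members were chosen by UMI counts among barcodes with 200 to 5000 genes, under 2% mitochondrial UMIs and under 1.5% UMIs of the ribosomal protein genes Rps and Rpl. A member carried 4 or more UMIs in total of 5 fibrogenic genes, which were Brinp3, Fhod3, Tnn, Tnc and Enpp1. Fhod3 encodes a formin that assembles actin filaments, and Enpp1 an enzyme that releases pyrophosphate, which inhibits mineralization. This sum also had to exceed that of 6 genes of another stromal population: Fgf7 (a growth factor), Bmper (a BMP-binding protein), Tspan11, Scn7a (a sodium channel), Svep1 and Sfrp1 (a secreted Wnt antagonist). Sums had to stay under 5 UMIs for the cartilage genes Hapln1, Col2a1, Col9a1, Col9a3 and Acan, under 2 for the bone genes Sp7, Ibsp and Alpl, and under 4 for the tendon genes Tnmd, Mkx, Thbs4 and Fmod, with 0 UMIs of Ptprc and Pecam1. The rule took 556 of the 6247 nuclei that passed the quality limits in the 4 post-fracture libraries, which hold 11450 barcodes. Because these genes chose the members, their levels describe the rule and were not tested.

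The study profiled nuclei of the periosteum, with the hematoma after injury, from wild-type C57BL/6ScNj mice (C57BL6 in the labels) aged 12 weeks, described as males and females mixed. Uninjured tibias of 4 mice were pooled for each of 2 libraries. Tibias with an open, non-stabilized fracture, from 4 to 9 mice per library, gave 2 libraries at day 3, 1 at day 5 and 1 at day 7; these mice received ketamine, medetomidine, buprenorphine and atipamezole around surgery, which cannot be told apart from the injury. Nuclei were sorted by Sytox-AAD and prepared with the 10x 3′ v3.1 kit.

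The uninjured libraries held 655 and 1446 barcodes with 1499281 and 6570301 UMIs in total. The day 3 libraries held 754 and 4712 barcodes with 2516184 and 29796296 UMIs, the day 5 library 2536 with 10411092, and the day 7 library 3448 with 4500767. Nuclei that passed the limits numbered 644 and 1182 in the uninjured libraries and 753, 1720, 2423 and 1351 in the post-fracture libraries, which are given throughout in the order day 3 replicate 1, day 3 replicate 2, day 5 and day 7. A nucleus that passed held a median of 1283 and 3348 UMIs before injury and of 2374, 4241, 2866 and 1325 UMIs after it. Days 5 and 7 had no replicate, so no spread between libraries can be given for them. Intervals below cover counting error only.

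Members numbered 39, 90, 331 and 96 in the post-fracture libraries, so day 5 gave most of them. A part of the members stood apart from the rest. Of the 556 members, 132 (23.7%) carried 3 or more UMIs of 6 skeletal muscle fibre genes, with 13, 63, 38 and 18 such nuclei per library. These nuclei held 49.2%, 79.2%, 16.7% and 23.3% of all members' UMIs, the largest part on day 3. In the nuclei with muscle fibre UMIs, Fhod3 made up 85.6%, 75.9%, 18.1% and 68.6% of the 5-gene sum. In the other 424 members it made up 2.35%, 7.69%, 8.53% and 11.4%, and 74 of the 556 members met the sum of 4 through Fhod3 alone, of which 72 carried muscle fibre UMIs. The summed level of the muscle marker genes was 11085, 21188, 2220 and 7980 CPM over all members and 180, 152, 44.1 and 207 CPM over the 424, with titin (Ttn) the most abundant of them.

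Results are therefore given for all 556 members and for the 424 that remain when nuclei with 3 or more muscle fibre UMIs are left out, which are 26, 27, 293 and 78 nuclei per library. A limit at 0.5% muscle fibre UMIs, tried earlier, left 455 members. Leaving nuclei out was chosen after the values were seen, so results of the 424 and 455 are alternatives to those of the 556 and not separate evidence. The 424 had a median of 2058, 5484, 3594 and 2338 UMIs per nucleus.

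The comparison population, called Fgf7/Bmper nuclei here, was gated by the mirror of the rule, with the 6-gene sum at 4 or more and above the 5-gene sum. It held 377 post-fracture nuclei (37, 77, 183 and 80) next to the 556 members. With muscle fibre nuclei left out it held 329 post-fracture nuclei (29, 53, 170 and 77) and 87 uninjured nuclei (15 and 72). The 15 nuclei of uninjured replicate 1 also carried 1793 CPM of Schwann cell markers and 2641 CPM of pericyte and smooth muscle markers. The 72 nuclei of uninjured replicate 2 carried 935 CPM of nerve sheath fibroblast markers, 951 CPM of stem/progenitor markers and 808 CPM of adipocyte markers. In post-fracture Fgf7/Bmper nuclei these 3 sums were highest at 43.9, 188 and 149 CPM, below those of uninjured replicate 2, and the part of these markers in the values below was not tested.

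The deposited counts came from 2 Cell Ranger versions: 7.1.0 for both day 3 libraries and uninjured replicate 2, and 6.0.0 for days 5 and 7 and uninjured replicate 1. Day 3 and the later days therefore cannot be told apart from the version. Any pair of libraries shared at most 7 barcodes, and no barcode was shared among members. Scrublet marked between 0.155% and 1.61% of nuclei per library as doublets, among them 1 of the 556 members and 0 of the 424.

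Members made up 5.18% (95% interval 3.71 to 7.01), 5.23% (4.23 to 6.39), 13.7% (12.3 to 15.1) and 7.11% (5.79 to 8.61) of the nuclei in the post-fracture libraries. The same gate on the uninjured libraries, as the background, took 34 nuclei or 5.28% (3.68 to 7.30) and 114 nuclei or 9.64% (8.02 to 11.5). Both day 3 shares were below both uninjured shares. The interval of uninjured replicate 1 overlapped those of day 3 and day 7, while that of replicate 2 lay above both day 3 intervals and overlapped that of day 7. Day 5 was above all other libraries. Nearly all of the uninjured nuclei so gated carried muscle fibre UMIs, 33 of 34 and 106 of 114.

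Among nuclei with under 3 muscle fibre UMIs, the uninjured shares were 1 of 434 nuclei, or 0.230% (0.00583 to 1.28), and 8 of 492, or 1.63% (0.705 to 3.18). The post-fracture shares were 7.88% (5.21 to 11.3), 2.50% (1.65 to 3.61), 14.0% (12.6 to 15.6) and 7.32% (5.83 to 9.05). All 4 were above both uninjured values, although the interval of day 3 replicate 2 overlapped that of uninjured replicate 2. The order of these 2 libraries depended on the processing. Without the limit on ribosomal protein UMIs, day 3 replicate 2 stood at 1.33% and uninjured replicate 2 at 1.62%, with day 7 at 3.76%. Under the 0.5% muscle fibre limit they stood at 2.48% and 2.46%. The difference between the day 3 and uninjured means was -2.26 percentage points over all nuclei and 4.26 over nuclei with under 3 muscle fibre UMIs, so its sign depended on this choice. Day 5 exceeded the day 3 mean by 8.45 and 8.83 points in the same order. No test was made, since 2 libraries against 2 cannot reach p under 0.05 in an exact permutation test.

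Depth differed between the libraries, and its part in these shares was examined by thinning. Nuclei under 1000 UMIs were left out and the others thinned to 1000, which kept 383 and 972 uninjured nuclei and 734, 1510, 2055 and 835 after fracture. The gate took 0.261% and 1.34% of the uninjured ones and 2.45%, 1.46%, 17.8% and 5.75% after fracture. Day 5 stayed highest, and all 4 post-fracture values lay above the uninjured ones, day 3 replicate 2 by little. Thinning also lowered the UMIs of the excluding genes, and the gate took 366 day 5 nuclei, against 331 before thinning. These values are therefore not the members' shares at equal depth.

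**Figure D1:**
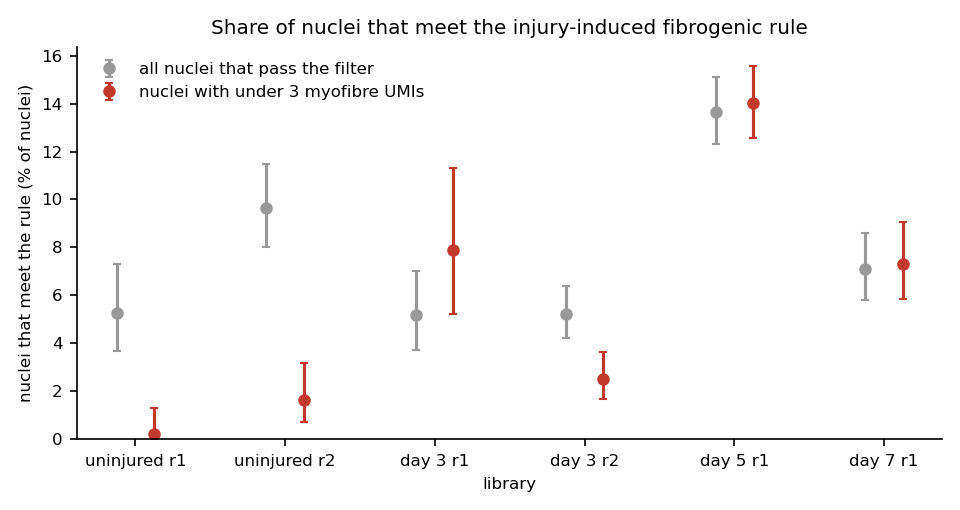
Share of nuclei (percent) that met the rule in each of the 6 libraries, with exact 95% binomial intervals; grey points count all nuclei that passed the quality limits and red points those with under 3 muscle fibre UMIs. The uninjured libraries sit at 5.28% and 9.64% in grey and at 0.230% and 1.63% in red, and day 5 is highest in both at 13.7% and 14.0%.

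Of the rule's 5 genes, Tnc (ENSMUSG00000028364; chromosome 4, 63959785 to 64047015 on the minus strand of GRCm38) made up the largest part on days 3 and 5. In the 424 nuclei it made up 68.5%, 61.4%, 44.2% and 28.9% of the 5-gene sum. Brinp3, a gene expressed mainly in the nervous system, made up 18.5%, 17.2%, 23.8% and 31.7%. The part of Tnc was highest on day 3 and that of Brinp3 on day 7. Over all 556 members the picture was mixed with Fhod3 from muscle fibre nuclei, as given above.

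Tnc stood at 3233, 1894, 2781 and 994 CPM in the 424 members, against 268, 286, 278 and 237 CPM in Fgf7/Bmper nuclei. Brinp3 stood at 874, 530, 1496 and 1091 CPM against 173, 294, 203 and 335 CPM. Enpp1 stood at 180, 202, 600 and 378 CPM against 26.0, 28.9, 51.2 and 25.8 CPM. The members were higher in every library, as the rule selects for. Tnn stood at 319, 222, 878 and 589 CPM against 43.3, 52.0, 79.0 and 129 CPM. Fhod3 stood at 111, 237, 537 and 391 CPM against 69.2, 28.9, 45.4 and 51.6 CPM. Both were again higher in the members of each library, Fhod3 by least in day 3 replicate 1.

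Postn (ENSMUSG00000027750; chromosome 3, 54361109 to 54391037 on the plus strand) was not part of the rule. It stood at 874 (672 to 1118), 1414 (1253 to 1590), 4246 (4135 to 4360) and 1676 (1512 to 1853) CPM in the 424 members, and at 444, 336, 3737 and 1369 CPM in all 556. In Fgf7/Bmper nuclei it stood at 1229, 1204, 2403 and 1558 CPM after fracture and at 0 and 79.4 CPM before. The log2 ratio of the 424 members to Fgf7/Bmper nuclei was -0.49, 0.23, 0.82 and 0.11, so Postn was higher in both populations after fracture than in uninjured Fgf7/Bmper nuclei and separated them only weakly.

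Shares of nuclei with a Postn UMI showed the same overlap. Thinning to 1000 UMIs left out shallower nuclei and kept 26, 27, 273 and 69 of the members and 29, 51, 163 and 64 of the Fgf7/Bmper nuclei. Of these, 57.7%, 55.6%, 81.3% and 68.1% of the members and 41.4%, 58.8%, 62.0% and 57.8% of the Fgf7/Bmper nuclei had a Postn UMI. Immune nuclei, which should lack it, had one in 0%, 13.7%, 19.1% and 4.35%, from a median of 2080, 3981, 2339 and 1868 UMIs before thinning. Both stromal populations were above the immune share in every library. Without thinning, over all 424, the members' shares were 76.9%, 92.6%, 90.8% and 80.8%, and the immune shares 1.82%, 30.8%, 29.8% and 9.38%.

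The name fibrogenic also rests on collagens that the rule did not use, and these differed in how far the other stromal population shared them. Col3a1, a fibrillar collagen of loose connective tissue, stood at 1249, 4257, 2654 and 1636 CPM in the 424 members and at 1964, 4012, 2362 and 1821 CPM in Fgf7/Bmper nuclei. Col8a1, a short-chain network collagen, stood at 55.5, 985, 3037 and 814 CPM against 164, 1235, 1671 and 1047 CPM. Neither was higher in the members in all 4 libraries. Aspn, which encodes the small proteoglycan asporin, stood at 55.5, 429, 777 and 642 CPM against 147, 427, 572 and 505 CPM, again without a separation in every library. Col5a1, a chain of the fibril-nucleating collagen V, stood at 999, 1358, 691 and 757 CPM against 961, 785, 385 and 598 CPM, higher in the members of all 4 libraries. Col12a1, a fibril-associated collagen, stood at 375, 1555, 1998 and 1869 CPM against 580, 722, 625 and 495 CPM. Its log2 ratio was -0.63, 1.11, 1.68 and 1.92, so the members were lower in day 3 replicate 1 and over 2-fold higher in the other 3 libraries.

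Nuclei on each side of the rule's limit of 4 UMIs were compared. In day 3 replicate 1, day 5 and day 7, 11, 11 and 24 nuclei with under 3 muscle fibre UMIs missed it with a sum of 3, and 4, 21 and 22 carried exactly 4. Their median depth was 1654, 1665 and 1084.5 UMIs at a sum of 3 and 1515.5, 1774 and 1823 UMIs at a sum of 4. Postn stood at 456, 483 and 1816 CPM at a sum of 3 and at 1145, 2368 and 1040 CPM at a sum of 4, so the side with more Postn differed between libraries. Day 3 replicate 2 had 2 and 1 such nuclei.

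**Figure D2:**
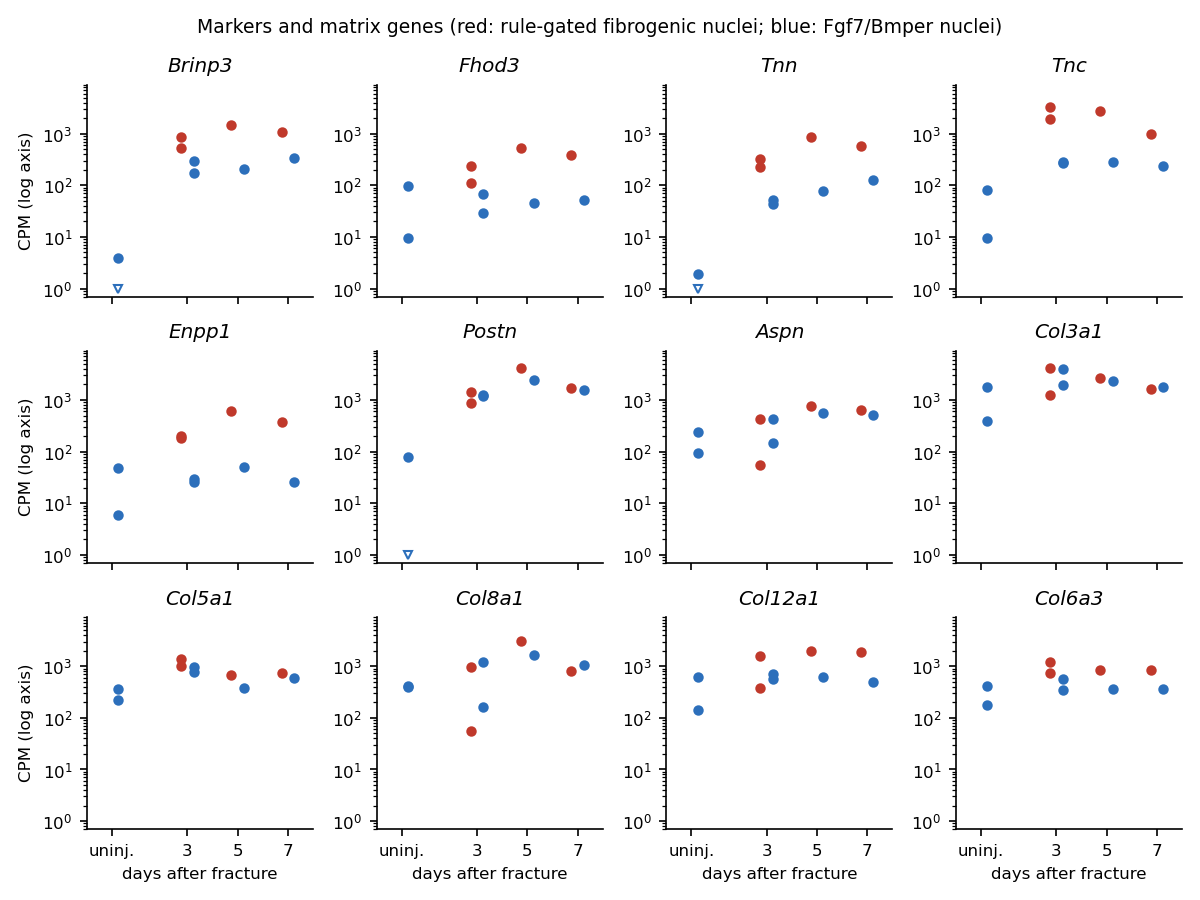
Level (CPM, log axis) of 12 fibrogenic and collagen genes in uninjured periosteum and at days 3, 5 and 7, each point being 1 library; red points are the 424 members and blue points the Fgf7/Bmper nuclei, with muscle fibre nuclei left out of both, and an open triangle marks 0. Tnc stands at 3233, 1894, 2781 and 994 CPM in the members against 237 to 286 CPM in post-fracture Fgf7/Bmper nuclei, while Postn and Col3a1 overlap between the populations.

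The 424 members also carried markers of other cell types. The rule itself limits part of the sums below. It capped Col2a1, Acan, Hapln1, Col9a1 and Col9a3 among the cartilage markers and Tnmd, Mkx, Thbs4 and Fmod among the tendon markers. It also required 0 UMIs of the immune marker Ptprc and the endothelial marker Pecam1. Cartilage markers summed to 111, 96.0, 351 and 374 CPM and immune markers to 125, 136, 32.5 and 17.6 CPM. Endothelial markers summed to 0, 25.3, 55.0 and 35.2 CPM, and Schwann cell markers to 27.7, 20.2, 10.8 and 26.4 CPM. The endothelial sum was higher on days 5 and 7 than on day 3. Tendon markers summed to 166, 55.6, 163 and 176 CPM, and pericyte and smooth muscle markers to 27.7, 35.4, 217 and 136 CPM. Stem/progenitor markers (Pi16, Dpp4, Cd34 and Ly6a) summed to 41.6, 80.8, 21.7 and 17.6 CPM, below the 121, 188, 176 and 87.7 CPM of Fgf7/Bmper nuclei. The cartilage sum and the pericyte and smooth muscle sum were also higher on days 5 and 7 and the immune sum on day 3, and the part of these sums in the changes over days below was not tested. Sums of bone markers are not given.

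Against Fgf7/Bmper nuclei of the same library the values were described and not tested, because the rule used this contrast. In the 556 members, 52 of 2464 genes at 50 CPM or more outside the rule were 2-fold or more higher in all 4 libraries, and 39 of 2539 were lower. Ranked by the smallest of their 4 ratios, the 15 highest were Agbl1, Actn2, Ldb3, Slc8a3, Mybpc1, Ppp1r3a, Myh1, Art1, Esrrg, Gm26740, Ano5, Trdn, Myl1, Filip1l and Atp2a1. Among them Actn2, Mybpc1, Myh1 and Myl1 encode sarcomere proteins, and Trdn and Atp2a1 proteins of the muscle calcium store. With muscle fibre nuclei left out of both populations, 6 of 2462 genes were higher and 21 of 2569 lower, and with the 0.5% limit 8 of 2477 and 20 of 2527.

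In the 424 members the genes with the most even excess came from several roles. Pdgfc, a platelet-derived growth factor ligand, stood at 416, 424, 576 and 444 CPM against 130, 170, 214 and 113 CPM. Col6a3, a chain of the pericellular collagen VI, stood at 1193, 758, 831 and 845 CPM against 580, 341, 366 and 361 CPM. Both were higher in all 4 libraries, which the ranking by the smallest ratio selects for. P4ha2, a subunit of the enzyme that hydroxylates collagen prolines, stood at 83.2, 217, 85.2 and 61.6 CPM against 43.3, 95.2, 41.0 and 20.6 CPM.

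Genes of adhesion and the actin cytoskeleton were also among them. Itga5, the fibronectin receptor's alpha chain, stood at 347, 182, 134 and 66.0 CPM against 43.3, 104, 36.6 and 30.9 CPM. Mical2, an actin-oxidizing enzyme, stood at 139, 308, 190 and 158 CPM against 17.3, 83.7, 67.3 and 41.3 CPM. Tpm4, a tropomyosin of non-muscle filaments, stood at 97.1, 172, 115 and 61.6 CPM against 43.3, 80.8, 45.4 and 30.9 CPM. Each of the 3 was higher in every library, again as the ranking selects for. The cell adhesion gene Sdk2, Ercc6, Nop56, Coro1c, Abtb2, Cit, Hhipl1 and Npas3 were also among the 15.

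Of the 10 genes lowest against Fgf7/Bmper nuclei, Gas6, a ligand of TAM receptors, stood at 27.7, 85.9, 65.0 and 83.6 CPM against 294, 369, 414 and 366 CPM. Dapk1, a death-associated kinase, stood at 83.2, 70.7, 34.8 and 39.6 CPM against 294, 245, 378 and 397 CPM. Both were lower in every library, which the ranking by the largest ratio selects for. The others were Efemp1, Gm34907, Arhgap20, Abca8a, Ifi203, Ssfa2, Tmtc1 and the complement inhibitor Serping1. Over all 556 members the 10 lowest were Efemp1, Csmd1, Dapk1, Gm34907, Chl1, Sult5a1, Gas6, Wisp2, Xdh and Ifi203.

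Gene families were described the same way in the 424 members, as the number of genes higher or lower in all 4 libraries. Genes counted had 50 CPM or more in the members of at least 1 post-fracture library. Genes high only in Fgf7/Bmper nuclei were thus left out, which favours counts of higher genes. Over all genes 605 of 4491 were higher in all 4 libraries and 466 lower. Among genes at 50 CPM or more in all 4 libraries of the members, 398 of 2462 were higher. With that limit set on Fgf7/Bmper nuclei instead, 411 of 2569 were lower. Of 9 fibrillar collagens 4 were higher and 0 lower, of 9 other collagens 1 and 1, and of 13 matricellular and adhesive glycoproteins outside the rule 2 and 0. Col1a1 stood at 1734, 2005, 2245 and 1012 CPM against 1212, 1613, 1579 and 810 CPM, which is a ratio of 0.52, 0.31, 0.51 and 0.32 (log2). Fn1, which encodes fibronectin, stood at 791, 1884, 1854 and 1342 CPM against 753, 1634, 1087 and 835 CPM. Both were higher in each library, by less than 2-fold.

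Enzymes that process collagen had 5 of 14 genes higher and 1 lower, and metalloproteinases and their inhibitors 2 of 10 higher and 4 lower. Loxl3, a lysyl oxidase, stood at 527, 667, 187 and 141 CPM against 355, 300, 89.3 and 72.2 CPM. Tll1, a protease that trims procollagen, stood at 41.6, 10.1, 160 and 233 CPM against 190, 113, 533 and 248 CPM. The former was higher and the latter lower in every library. Of the small leucine-rich proteoglycans 0 of 4 were higher and 1 lower, with Dcn (decorin) at 111, 374, 185 and 282 CPM against 312, 517, 376 and 382 CPM.

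Contractile genes had 4 of 11 higher and 0 lower, and integrins 3 of 9 and 0. Itgb1, the shared beta chain, stood at 277, 394, 414 and 308 CPM against 164, 231, 215 and 211 CPM. The smooth muscle actin gene Acta2 was scarce at 0, 15.2, 62.7 and 30.8 CPM against 17.3, 23.1, 16.1 and 10.3 CPM, with the higher side differing between libraries. Mitotic genes had 6 of 14 higher and 0 lower, and homeostatic stromal genes 0 of 5 higher and 3 lower.

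Signalling genes stood on both sides. The TGF-beta pathway had 6 of 23 genes higher and 4 lower, with the ligand Tgfb2 at 180, 126, 282 and 260 CPM against 51.9, 80.8, 74.6 and 46.4 CPM and the ligand subunit Inhba at 180, 374, 68.8 and 44.0 CPM against 69.2, 17.3, 14.6 and 5.16 CPM. The receptor gene Tgfbr3 was lower, at 694, 1076, 337 and 317 CPM against 1177, 1293, 776 and 542 CPM. The BMP pathway had 3 of 12 higher and 2 lower, with the receptor Bmpr1b at 943, 591, 759 and 1034 CPM against 588, 271, 385 and 562 CPM.

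The Wnt pathway had 1 of 11 genes higher and 3 lower, with a median log2 ratio of -0.74 beside 0.04 over all genes. Its receptor gene Ror1 stood at 777, 510, 354 and 519 CPM against 2700, 1437, 1035 and 980 CPM, lower in every library. The Notch pathway had 0 of 8 higher and 2 lower, chemokines and cytokines 0 of 5 and 2, hypoxia and glycolysis genes 3 of 6 and 0, AP-1 and immediate-early genes 1 of 3 and 0, and apoptosis genes 1 of 4 and 0.

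Lists that the study chose on these samples are no separate evidence. Its fibrogenic score had 1 of 5 genes higher in all 4 libraries and 0 lower, its matrix score 5 of 14 and 1, its ligands 3 of 8 and 1, and its receptors 3 of 11 and 1. Its fibrogenic core transcription factors had 3 of 17 higher and 2 lower, the cartilage core factors 5 of 21 and 1, the bone core factors 1 of 2 and 0, and the Notch score 1 of 11 and 2. Of the 11 fibrogenic markers 5 are the rule's own genes, so the sum over all 11 is set in part by the rule. The other 6, which are Postn, Aspn, Col3a1, Col5a1, Col8a1 and Col12a1, summed to 3607, 9999, 13404 and 7394 CPM in the 424 members. In Fgf7/Bmper nuclei they summed to 5045, 8384, 8019 and 6024 CPM after fracture and to 1729 and 3021 CPM before. The members were lower in day 3 replicate 1 and higher in the other 3 post-fracture libraries. The uninjured nuclei that met the members' gate, with under 3 muscle fibre UMIs, stood at 1002 CPM (1 nucleus) and 5552 CPM (8 nuclei). The latter was above the 3607 CPM of day 3 replicate 1.

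Uninjured Fgf7/Bmper nuclei gave a background for the members after injury, as values without a test. Runx1, a transcription factor of stromal and blood cells, was higher in the 424 members by 5.04 (log2) at day 3, 5.53 at day 5 and 4.83 at day 7. It stood at 1748, 2429, 2896 and 1773 CPM against 32.0 and 122 CPM uninjured. Post-fracture Fgf7/Bmper nuclei were also high, at 1376, 2029, 1622 and 1460 CPM. Runx2, the transcription factor of bone formation, was higher by 4.18, 4.23 and 3.43, with the members at 1817, 2131, 2036 and 1170 CPM and Fgf7/Bmper nuclei at 64.0 and 184 CPM uninjured and 1333, 802, 850 and 939 CPM after fracture. Uninjured nuclei that met the members' own gate stood at 0 CPM (1 nucleus) and 1055 CPM (8 nuclei) for Runx2 and at 0 and 124 CPM for Runx1. For Runx2 these 8 nuclei were thus near the 1170 CPM of the day 7 members, and they also carried 3877 CPM of pericyte and smooth muscle markers.

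The rest of the 15 genes highest by this measure were Kif26b, Diaph3 (a formin), Xist, Postn, Bmpr1b, Edil3 (an integrin-binding matrix protein), Greb1, Fbn2 (fibrillin 2), E2f3 (a cell cycle transcription factor), Fam19a2, Ltbp2, Dclk1 and Robo1. Kif26b, a kinesin family gene, stood at 222, 439, 935 and 761 CPM in the members. In Fgf7/Bmper nuclei it stood at 16.0 and 1.94 CPM uninjured and at 1038, 658, 561 and 799 CPM after fracture, so it too was high in both populations. Xist, expressed from the inactive X chromosome of females, stood at 1040 and 1.94 CPM in the 2 uninjured libraries, so its place in this ranking follows replicate 2. After fracture it stood at 597, 1899, 2364 and 1183 CPM in the members. The level of uninjured replicate 2 differs from what a pool of both sexes would give, so the sexes in the libraries are uncertain and their part in the comparisons was not tested.

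Changes over days within the members were tested, since the wording of the rule is the same at every time. Its limits are UMI counts, however, so the nuclei it takes also depend on depth, which differed between the libraries as given above. No slope was fitted on thinned nuclei, and the part of depth in the slopes was not tested. The test was edgeR's quasi-likelihood test of a slope over days across the 4 post-fracture libraries, with Benjamini-Hochberg adjustment. In the 556 members, 0 of 7716 genes were called at an adjusted p under 0.05 (0.0% of the genes tested higher and 0.0% lower). At an unadjusted p under 0.05 there were 804 genes, and DESeq2 called 96. Without the day 5 library edgeR called 216 genes and without day 7 465, while without either day 3 library it called 0.

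In the 424 members, edgeR called 1 of 4258 genes, which was lower with time (0.0% of the genes tested higher and 0.0235% lower), with 543 genes at an unadjusted p under 0.05 and 45 called by DESeq2. Without day 3 replicate 1 the count was 195, without day 7 125, and without day 3 replicate 2 or day 5 it was 0. In the 455 members it called 17 of 4787, of which 8 were higher (0.167% of the genes tested) and 9 lower (0.188%), with 651 at an unadjusted p under 0.05. The 3 member sets differ in which nuclei were left out, and the counts of 0, 1 and 17 depended on that choice.

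The gene called in the 424 members was Prg4 (ENSMUSG00000006014; chromosome 1, 150449412 to 150466165 on the minus strand), which encodes the surface lubricant lubricin. It stood at 721 (539 to 946), 631 (525 to 752), 8.52 (4.25 to 15.2) and 4.40 (0.111 to 24.5) CPM. Both day 3 values were above those of days 5 and 7. The share of all tested genes that separate in this way is not given. The slope was -2.85 log2 per day (SE 0.303; adjusted p = 0.0100 in edgeR's quasi-likelihood test, Benjamini-Hochberg), and the median slope of all tested genes was 0.00. Without day 5 it was -1.74 and no longer called, and without either day 3 library the gene was not tested. Day 5 alone against day 3 and day 7 alone against day 3 did not call it either. In all 556 members Prg4 stood at 366, 139, 8.39 and 3.37 CPM, with a slope of -2.13 that was not called (adjusted p = 0.302 in edgeR's quasi-likelihood test, Benjamini-Hochberg). In those 556 it was called without day 5 (-1.52) and without day 7 (-2.45).

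Few nuclei carried these counts. In the 424 members Prg4 had 52 UMIs in 11 of 26 nuclei, 125 in 7 of 27, 11 in 9 of 293 and 1 in 1 of 78. A single nucleus of day 3 replicate 2 held 66 of the 125, and without the nucleus with most UMIs the levels were 573, 312, 6.99 and 0 CPM. Fgf7/Bmper nuclei also carried it, at 48.0 and 414 CPM uninjured and 441, 63.5, 7.32 and 0 CPM after fracture. Among the days after fracture, day 3 was thus the highest in both populations. The 414 CPM of uninjured replicate 2 was above the 63.5 CPM of day 3 replicate 2.

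In the thinned nuclei, which are 26, 27, 273 and 69 members, 30.8%, 14.8%, 0.733% and 0% had a Prg4 UMI. Immune nuclei had one in 3.70%, 2.95%, 0.375% and 0%. The members' day 3 shares were above the immune ones and the later shares near or at them. Without thinning the members' shares were 42.3%, 25.9%, 3.07% and 1.28% and the immune shares 7.27%, 10.7%, 0.669% and 0%.

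Other genes were named by their p value and were not called in the 424 members in edgeR's quasi-likelihood test, Benjamini-Hochberg. Higher values on later days were seen for Abi3bp, a matrix protein, at 83.2, 197, 544 and 1628 CPM (slope 0.89, adjusted p = 0.0563), and for Rspo2, a secreted Wnt agonist, at 13.9, 10.1, 208 and 519 CPM (slope 1.22, adjusted p = 0.0598). The transcription factor gene Sox6 stood at 27.7, 35.4, 225 and 400 CPM (slope 0.89, adjusted p = 0.0800), and over all 556 members, muscle fibre nuclei included, at 1190, 2080, 515 and 742 CPM. In these 3 genes days 5 and 7 were above day 3 in the 424, which their choice by p value and direction favours. Gli2, a hedgehog pathway transcription factor, stood at 0, 30.3, 80.5 and 242 CPM, and Plcl1 at 194, 253, 602 and 1060 CPM (adjusted p = 0.114 for each). Abi3bp and Rspo2 were also leading genes of a cluster within the members, described at the end. That cluster held 23.1%, 22.2%, 35.8% and 43.6% of the 424 members per library. The part of the mix of clusters in these values was not tested.

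Lower values on later days were seen for Errfi1, an EGF receptor inhibitor, at 416, 323, 107 and 22.0 CPM (slope -0.96, adjusted p = 0.0598 in edgeR's quasi-likelihood test, Benjamini-Hochberg). Smad7, an inhibitor of TGF-beta signalling, stood at 111, 192, 29.4 and 4.40 CPM, and Fosl1, a subunit of AP-1, at 69.4, 90.9, 4.65 and 0 CPM. G3bp1, a stress granule protein, stood at 305, 283, 118 and 22.0 CPM and Hmgcll1 at 569, 449, 167 and 61.6 CPM. None of the 5 was called. Day 3 was above the later days in each, which their choice by p value and direction favours.

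In the 556 members the genes with the smallest p were other ones in part. Abi3bp (slope 1.19), Enpp2 (1.55), Gli2 (0.98), Hmcn1 (0.70) and Mecom (0.68) were higher on later days, and Ampd3 (-1.30), Plin4 (-2.07), Lama5 (-1.85) and Card14 (-1.13) lower. None was called by edgeR. The part of UMIs from muscle fibre nuclei, 49.2%, 79.2%, 16.7% and 23.3%, was also higher on day 3, and its role in these slopes was not tested.

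**Figure D3:**
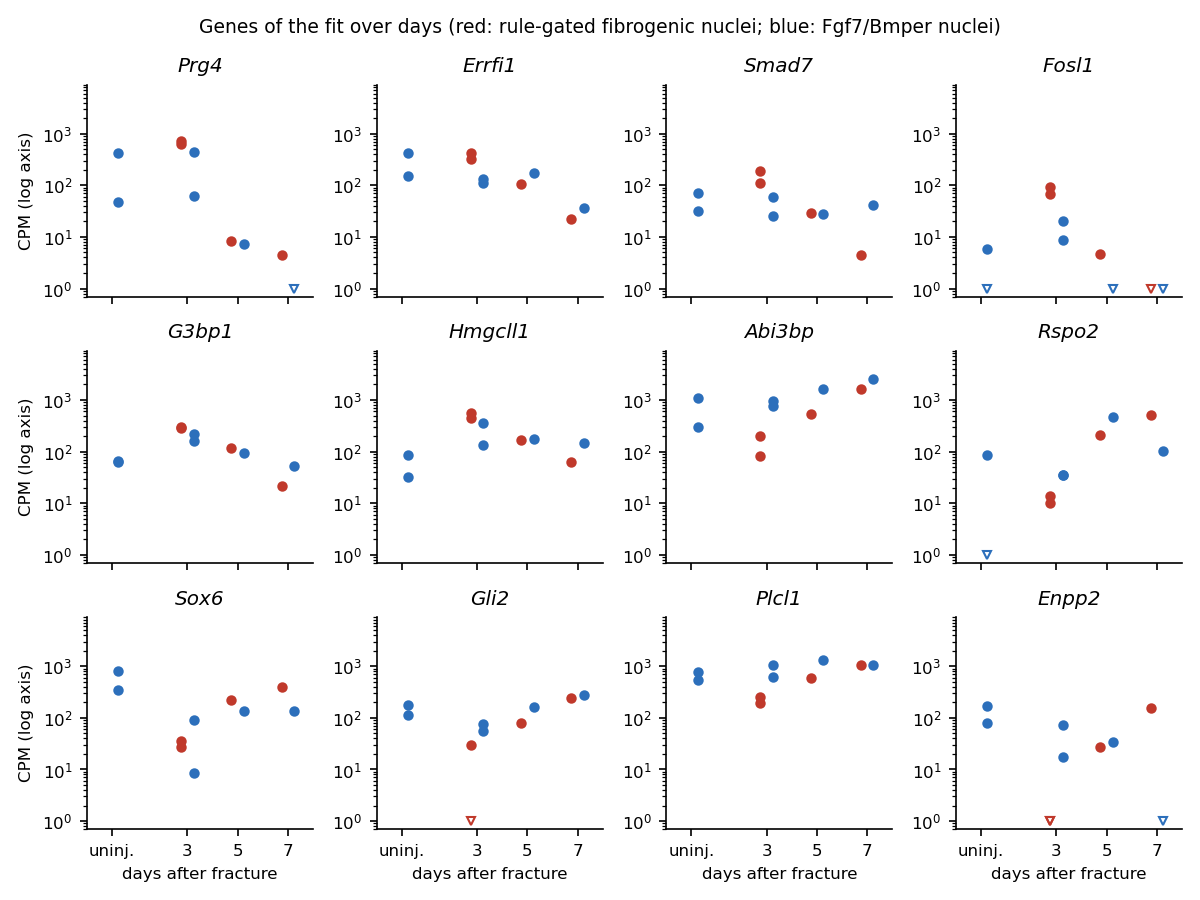
Level (CPM, log axis) in uninjured periosteum and at days 3, 5 and 7 of 12 genes named by the tests over days, each point being 1 library; red points are the 424 members and blue points the Fgf7/Bmper nuclei, with muscle fibre nuclei left out of both, and an open triangle marks 0. Prg4 stands at 721 and 631 CPM at day 3 and at 8.52 and 4.40 CPM later, and Rspo2 and Enpp2 stand higher in the members than in Fgf7/Bmper nuclei at day 7.

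The same families were described over days in the 424 members by the count of genes at an unadjusted p under 0.05, of which edgeR called 0 in each. Over all 4245 genes tested outside the rule 248 were higher with time and 291 lower, with a median slope of 0.00. Mitotic genes had 0 higher and 9 of 11 lower, with a median slope of -0.58. Their summed level was 1845, 3676, 1239 and 889 CPM in the members and 2207, 900, 449 and 505 CPM in Fgf7/Bmper nuclei, so day 3 was the highest time in both. A cluster of the members described at the end was marked by dividing-cell genes. It held 19.2%, 33.3%, 17.7% and 10.3% of the 424 members per library, and its part in these slopes was not tested. Top2a, a topoisomerase of dividing cells, stood at 180, 399, 72.8 and 61.6 CPM.

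Hypoxia and glycolysis genes had 0 higher and 5 of 6 lower, with a median slope of -0.65. Vegfa, the ligand that drives vessel growth, stood at 180, 298, 52.8 and 35.2 CPM, and Pkm, a glycolytic enzyme, at 153, 404, 114 and 79.2 CPM. AP-1 and immediate-early genes had 0 higher and 4 of 7 lower, with a median slope of -0.56, and lysyl oxidases and collagen processing genes 2 higher and 6 of 14 lower, with a median of -0.25. The TGF-beta pathway had 0 higher and 5 of 21 lower. The Wnt pathway had 3 of 11 higher and 1 lower, the Notch pathway 2 of 7 and 0, and matricellular and adhesive glycoproteins 3 of 12 and 2. Chemokines and cytokines had a median slope of -0.44, contractile genes 0.13, fibrillar collagens -0.02 and the study's ligands 0.26. Col11a1, a fibrillar collagen shared with cartilage, stood at 166, 212, 1646 and 1421 CPM beside the higher cartilage marker sums of days 5 and 7 given above, and their part in it was not tested.

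Whether a gene's slope differed between members and Fgf7/Bmper nuclei was tested with edgeR's quasi-likelihood test of the population by day term, with library as a block. In the 556 members and the 377 Fgf7/Bmper nuclei, edgeR called 1 of 7547 genes (0.0133% of the genes tested with the higher slope in members and 0.0% with the lower), with 534 at an unadjusted p under 0.05 and 0 called by DESeq2. With muscle fibre nuclei left out of both it called 3 of 5066 (0.0592%, higher in members), with 367 at an unadjusted p under 0.05 and 0 called by DESeq2. With the 0.5% limit it called 2 of 5722 (0.035%, higher in members), with 376 at an unadjusted p under 0.05. Leaving out a library moved the count in the 556 to 3 without day 3 replicate 1, 3 without day 3 replicate 2, 10 without day 5 and 35 without day 7. With muscle fibre nuclei left out it was 1 without day 3 replicate 1, 10 without day 5 and 9 without day 7.

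Enpp2 (ENSMUSG00000022425; chromosome 15, 54838901 to 54952892 on the minus strand), which encodes autotaxin, the enzyme that makes lysophosphatidic acid, was called in both. In the 556 members it stood at 0, 1.05, 23.2 and 118 CPM and in Fgf7/Bmper nuclei at 49.7, 54.1, 33.6 and 0 CPM. It was thus higher later in the members and earlier in Fgf7/Bmper nuclei. The slopes differed by 2.93 log2 per day (SE 0.383; adjusted p = 0.0102 in edgeR's quasi-likelihood test, Benjamini-Hochberg). Without day 7 the difference was 2.47 with an adjusted p of 0.0520 by the same edgeR test, so the call depended on that library.

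In the 424 members Enpp2 stood at 0 (0 to 51.2), 0 (0 to 18.6), 27.1 (18.9 to 37.7) and 154 (107 to 214) CPM, from 0, 0, 35 and 35 UMIs. In Fgf7/Bmper nuclei it stood at 17.3, 72.2, 33.7 and 0 CPM, from 2, 25, 23 and 0 UMIs. The 25 UMIs of day 3 replicate 2 came from 8 nuclei, 1 of which held 11. Without that nucleus the level was 43.0 CPM. The slopes differed by 4.20 log2 per day (SE 0.604; adjusted p = 0.0464 in edgeR's quasi-likelihood test, Benjamini-Hochberg). At day 7 11 of 78 members had an Enpp2 UMI and 1 of them held 11 of the 35 UMIs. The share of immune nuclei with a UMI is not given for Enpp2 or Rspo2, so no background stands beside them. The call was lost without day 3 replicate 1 and without day 7, where the differences were 4.46 and 3.67, and the gene was not tested without day 3 replicate 2.

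Rspo2 and Plcb4, a phospholipase C that acts downstream of G proteins, were called in the 424 members, each with an adjusted p of 0.0464 in edgeR's quasi-likelihood test, Benjamini-Hochberg. Rspo2 stood at 13.9, 10.1, 208 and 519 CPM in the members and at 34.6, 34.6, 462 and 103 CPM in Fgf7/Bmper nuclei, and its slopes differed by 1.43 (SE 0.239). The members were lower up to day 5 and higher at day 7 only, and without day 7 the difference was 0.25 and not called. It was also not called without day 3 replicate 1, where the difference was 1.55, nor in the 556 members, where it was 1.37.

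Plcb4 stood at 180, 288, 414 and 532 CPM in the members and at 346, 554, 301 and 170 CPM in Fgf7/Bmper nuclei, and its slopes differed by 0.66 (SE 0.108). The members were lower in both day 3 libraries and higher at days 5 and 7. The call was lost without day 3 replicate 1, without day 3 replicate 2 and without day 7, where the differences were 0.67, 0.62 and 0.73. In the 556 members the difference was 0.65 and not called. In the thinned nuclei, 15.4%, 14.8%, 36.6% and 37.7% of the members had a Plcb4 UMI, against 5.56%, 5.89%, 7.49% and 4.35% of immune nuclei. Endothelial nuclei had one in 86.7%, 60.0%, 61.5% and 75.0%, from a median of 2265.5, 8336.5, 3194 and 1455 UMIs before thinning. Without thinning the members' shares were 30.8%, 70.4%, 62.1% and 55.1% and the immune shares 5.45%, 14.8%, 15.4% and 9.38%. The endothelial marker sum of the members was also higher on days 5 and 7, and its part in this result was not tested.

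Clusters within the 424 members, made on values centred by library, held 184, 151, 74 and 15 nuclei and are given as a description. The group of 184 was marked by Ccnd3, Spsb1, Ccbe1, Mrpl48 and Tgfb2, and the group of 151 by Igf1, Pdzrn4, Abi3bp, Rspo2 and Frmd5. The group of 74 was marked by Shcbp1, Neil3, Depdc1b, Bub1 and Mastl. It carried 709 CPM of proliferation markers against 125, 24.7 and 94.9 CPM in the groups of 184, 151 and 15. Its endothelial markers summed to 133 CPM, against 11.1, 18.5 and 0 CPM in the same order. It was also the deepest, with a median of 5699.5 UMIs against 3004 in the other nuclei. The group of 15 came from day 5 alone, with a median of 1219 UMIs. It carried Ostn, Mlip, Smpd3, Insc and Tnfrsf19 and was left unnamed, since a cell state and 1 library cannot be told apart. Its fibrogenic marker sum, 10102 CPM, was the lowest of these groups, against 18554, 17461 and 16076 CPM in those of 184, 151 and 74. Its sum of bone markers is not given, and it need not be of the same type as the other members.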

How the data were processed

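The gene by barcode counts deposited by the authors (Cell Ranger 6.0.0 and 7.1.0, gene identifiers of GRCm38) were used as they were, over the 30406 genes shared by the 6 libraries. UMIs were summed per library over the gated nuclei and tested with edgeR 4.0.16 (TMM, filterByExpr, quasi-likelihood, Benjamini-Hochberg) in R 4.3.3, with DESeq2 1.42.0 as an alternative. Gating, thinning and clusters used Python 3.11.15 with scanpy 1.11.5 (on anndata 0.12.19), tables pandas 2.3.3 and numpy 2.4.6, intervals scipy 1.17.1, and figures matplotlib 3.10.9. Binomial intervals are Clopper-Pearson, intervals of CPM are Poisson, and both cover counting error only. Gene coordinates came from GENCODE vM21. Doublets marked by Scrublet were kept, and left out as an alternative. Members and lists were chosen with earlier results of these data known. A count of 0 was set to 3 counts in ratios to Fgf7/Bmper nuclei, both those of the same library and the uninjured ones. Within a library, a gene with 3 or fewer counts in both populations was given no ratio.

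Genes were named by rule: the genes of the gate and its markers; the listed families, as counts; all called genes, then the 5 with the smallest p in each direction; the 15 highest by the smallest and the 10 lowest by the largest ratio to Fgf7/Bmper nuclei over the 4 libraries; the 15 highest against uninjured Fgf7/Bmper nuclei; and the 5 leading genes of each cluster. Genes of the slope comparison were named because they were called. The parts on ratios and clusters were applied to the 424 members, and those on the ratios to Fgf7/Bmper nuclei and on the trend also to the 556. Not every gene that the rule names is printed. Values given within a family were chosen after they were seen. The fits were tested on simulated data, but no outcome of this is given and no result above rests on it. The 455 and the 424 members are alternatives added after the values of the 556 were seen, and the 424 were chosen after those of the 455.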

Additional observations from a re-analysis of the deposited data

Results flagged for a closer look

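4 results drew attention because the slope of a gene over days differed between 2 populations of nuclei. Enpp2 differed by 2.93 log2 per day between the 556 members and Fgf7/Bmper nuclei. With muscle fibre nuclei left out of both populations, Enpp2 differed by 4.20, Rspo2 by 1.43 and Plcb4 by 0.66 log2 per day. edgeR called each and DESeq2 called 0 genes in this comparison. Each of the 4 calls was lost when day 7 was left out, where the differences were 2.47, 3.67, 0.25 and 0.73 in the same order. The cause of the differences was not tested.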

How the results depend on the processing

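Counts of genes with a slope over days moved most. For the 556 members (0 called), DESeq2 gave 96, day 5 against day 3 496, day 7 against day 3 228, no filter on low counts 316, the 424 members 1 and the 455 members 17, and leaving out 1 library gave 0 to 465. For the 424 members (1 called), DESeq2 gave 45, day 5 against day 3 0, day 7 against day 3 0, no filter 156, no upper limit on genes 2, and leaving out 1 library gave 0 to 195.

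Counts of genes whose slope differed from Fgf7/Bmper nuclei moved too. For the 556 members (1 called), DESeq2 gave 0, no filter 34, no upper limit on genes 3, a gate at 6 or more UMIs 28, the 424 members 3 and the 455 members 2, and leaving out 1 library gave 3 to 35. For the 424 members (3 called), DESeq2 gave 0, no filter 33, no upper limit 16, the stricter gate 5, and leaving out 1 library gave 1 to 10. The cause was not tested for any of these counts. With 1 library left out, 3 libraries remained, and a day with 1 library was assumed to vary like the others.

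The day 3 minus uninjured share, -2.26 percentage points, became 1.16 with thinned nuclei and -5.43 with muscle fibre nuclei left out of the denominator alone. It became 4.26 and 3.83 with them left out of members and denominator by the 3-UMI and the 0.5% limits, and -4.44 to -0.0736 with 1 library left out. The day 5 minus day 3 share, 8.45 points, became 15.9 with thinned nuclei and 5.77 with the smaller denominator, and was 8.43 to 8.48 without a day 3 library. With under 3 muscle fibre UMIs, the share of day 3 replicate 2 became 1.33% without the ribosomal limit, under the 1.62% of uninjured replicate 2.

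Of genes 2-fold higher than in Fgf7/Bmper nuclei, 52 became 4 with thinned nuclei, 6 in the 424 and 8 in the 455 members. Of those lower, 39 became 12, 21 and 20 in the same order, and the 21 of the 424 became 11 with thinned nuclei. The cause was not tested.

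Slopes of single genes kept their direction under the alternatives that fit a slope. Of these, Abi3bp passed the threshold in 5 of 10, Rspo2 and Sox6 in 4 of 10 each, and Prg4 failed it in 1 of 8. Prg4 also failed it in edgeR's day 5 against day 3 (adjusted p = 0.136) and day 7 against day 3 (adjusted p = 0.223), against 0.0100 as reported and up to 0.268 without day 5.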
